A study of Mus musculus with 9 samples.

Results

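Ctnnb1, Apc, Axin1, Axin2, Gsk3b, Csnk1a1, Btrc, Nkd1, Rnf43 and Znrf3 encode β-catenin, the machinery that destroys it and the feedback proteins that dampen Wnt signalling. In cells without a Wnt signal, the scaffolds Axin and Apc hold β-catenin so that casein kinase 1α (Csnk1a1) and glycogen synthase kinase 3β (Gsk3b) phosphorylate it, and the ubiquitin ligase adaptor β-TrCP (Btrc) then marks it for degradation. A Wnt signal at the membrane disables this complex, and β-catenin enters the nucleus to act with TCF and LEF factors. Axin2, Nkd1, Rnf43 and Znrf3 are known targets of the pathway that restrain it in turn, and in the blood system the level of β-catenin signalling is known to bear on stem cell self-renewal and on leukaemia.

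Accessible chromatin at these 10 genes was read from ATAC-seq peak lists of mouse LSK cells, the lineage-negative, Sca-1-positive, Kit-positive marrow fraction with the stem and early progenitor cells. A peak belonged to a gene when its summit lay inside the gene's GRCm38 span, or within 50 kb of it with that gene as the nearest protein-coding gene. Overlapping peaks (1 bp or more) from the 9 lists were joined into 76253 regions, of which 60 belonged to the 10 genes. The members at the edge of the rule were flank regions of Csnk1a1 at 42.2 and 47.7 kb from its span, with a mean fold over background of 4.17 and 5.34. Just outside it lay a region 55.5 kb from Btrc at 4.56 and a region 61 kb from Axin2 at 26.4.

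The groups were Bcat_KO (β-catenin, the product of Ctnnb1), HOXA9_KO (the homeobox factor Hoxa9), PRMT1_KO (the arginine methyltransferase Prmt1) and WT, with 2 libraries each, and a dKO of β-catenin and Hoxa9 with 1 library and so no replicate error. The sample titles say KO, whereas the genotype tags say knockdown. The series text speaks only of Prmt1KO primary transplants, and whether the other groups were transplants too is not stated. The deleted part of each gene, the driver of deletion, the strain and the age are not given in the sources used here. Nothing says that the 2 libraries within a group are from separate mice, and p-values measure only the spread between these samples, which may be technical. Per the labels, each library started from 50000 cells.

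The lists of the 8 paired libraries held 28325 to 45460 peaks and the dKO list 10639, and both WT lists were the shortest of the 8, at 35581 and 28325 peaks. Read totals are not in the lists, but the fold and p of a peak give its summit reads. These were 6 to 207 at the member peaks where they came out whole. In the weakest 200 peaks of each paired list the median was 6 or 7. Of 11 LSK marker genes, 6 (Kit, Cd34, Flt3, Runx1, Tal1 and Meis1) had a peak at a gene start or end in all 8 paired libraries, but Ly6a, the gene of Sca-1, had one in 0 of 8. Such a peak was found in no library for 4 of 4 T cell and 4 of 4 B cell markers, and in all 8 for Col1a1 and Col1a2 of the stromal list. Peaks on chromosome Y were counted before 90 Mb only. The mutant lists held 12 to 16 of them, the dKO list 6 and the WT lists 0 and 0. Sex and genotype thus cannot be told apart between the mutants and WT. All 10 genes studied here are autosomal. The peak names of the dKO list carry another run naming than the other 8, and its run and genotype cannot be told apart either. With bulk cells, a change in the mix of cells and a change in accessibility within a cell cannot be told apart.

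The starts of the members differ widely in CG content, and 4 of them are shown, 3 richer in CG with a peak in every paired library and 1 poorer in CG with a peak in 1. Each is the 250 bases before the annotated start, from RefSeq (GRCm38.p6), 5′ to 3′, with CG dinucleotides in capitals. All 4 are on the plus strand, at chr9:120933150-120933399 (Ctnnb1), chr11:108920099-108920348 (Axin2), chr16:38088751-38089000 (Gsk3b) and chr11:87662837-87663086 (Rnf43).
Ctnnb1: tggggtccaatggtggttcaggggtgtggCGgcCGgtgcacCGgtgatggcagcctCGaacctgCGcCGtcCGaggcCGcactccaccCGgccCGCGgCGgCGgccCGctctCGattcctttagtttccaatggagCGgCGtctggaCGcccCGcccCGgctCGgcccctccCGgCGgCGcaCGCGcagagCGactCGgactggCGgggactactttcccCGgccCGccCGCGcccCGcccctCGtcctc
Axin2: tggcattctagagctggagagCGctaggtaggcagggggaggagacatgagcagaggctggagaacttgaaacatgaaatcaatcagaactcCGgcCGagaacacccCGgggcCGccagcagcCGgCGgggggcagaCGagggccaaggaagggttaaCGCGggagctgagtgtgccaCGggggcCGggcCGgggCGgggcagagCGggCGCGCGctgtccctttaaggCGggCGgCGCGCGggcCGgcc
Gsk3b: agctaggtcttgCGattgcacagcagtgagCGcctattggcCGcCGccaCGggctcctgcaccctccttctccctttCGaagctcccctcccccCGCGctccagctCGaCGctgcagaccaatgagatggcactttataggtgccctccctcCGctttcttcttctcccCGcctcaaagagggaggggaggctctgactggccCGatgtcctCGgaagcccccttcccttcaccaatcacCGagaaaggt
Rnf43: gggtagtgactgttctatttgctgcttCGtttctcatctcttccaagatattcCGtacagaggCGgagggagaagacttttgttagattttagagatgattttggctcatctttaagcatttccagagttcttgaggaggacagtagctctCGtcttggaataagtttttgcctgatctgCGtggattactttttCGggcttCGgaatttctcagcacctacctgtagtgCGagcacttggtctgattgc

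These stretches hold 35 CG in Ctnnb1, 24 in Axin2, 15 in Gsk3b and 8 in Rnf43. Over the full 300-base windows, which add 50 bases after the start, the count was 46 in Ctnnb1, 31 in Axin2, 21 in Gsk3b and 10 in Rnf43, beside a median of 7 over 32851 windows of the genome. The windows not shown held 51 CG at a second start of Ctnnb1, 6 at Nkd1 and 3 at a second start of Rnf43. The starts of Ctnnb1, Axin2 and Gsk3b had a peak in 8 of 8 paired libraries and that of Rnf43 in 1. Across all windows with at least 20 CG, 81.3% had a peak in all 8 libraries, against 19.5% of the windows under 20. Windows were found for 5 of the 10 genes, 7 windows in all. None of them held, on either strand, CTTTGAA or CTTTGAT (TCF/LEF, in 8.65% of all windows), TGATTTAT (HOX-PBX, 0.977%), CCGGAAGT (ETS, 3.89%), TGTGGTTT (RUNX, 1.78%) or AGATAAG (3.04%, for GATA).

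Of the 60 regions, 12 were present in all 8 paired libraries, beside 19172 of all 76253 regions. The share was not higher at these genes. The 12 were 3 of Gsk3b, 2 of Ctnnb1 and 1 each of Apc, Axin1, Axin2, Csnk1a1, Btrc, Nkd1 and Znrf3, whereas Rnf43 had none. Another 29 regions occurred in 1 library only, and 19 in 2 to 7 libraries. No share over all regions is given for these other counts. Regions per library numbered 25 and 28 for Bcat_KO, 25 and 28 for HOXA9_KO, 27 and 27 for PRMT1_KO, 6 in the dKO, and 25 and 15 in WT. The low WT library, replicate 2, also had the shortest of the paired lists. As a share of the list, member peaks made up 0.0578% and 0.0682% for Bcat_KO, 0.0627% and 0.0701% for HOXA9_KO, 0.0607% and 0.0677% for PRMT1_KO, 0.0564% in the dKO, and 0.0703% and 0.053% in WT, so the groups overlapped. A peak at a gene start or end in all 8 libraries was found for 7 of the 10 genes (70%), beside 51.5% of 97 other Wnt pathway genes and 43.3% of 21896 protein-coding genes. The 3 without one were Axin1, Csnk1a1 and Rnf43. Axin1 had its common region 7393 bp inside the gene. The summits of the common Csnk1a1 region lay 958 to 1009 bp from the end of the gene. They met the limit of 1000 bp in 4 of the 8 libraries, so Csnk1a1 missed the count narrowly.

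**Figure D1:**
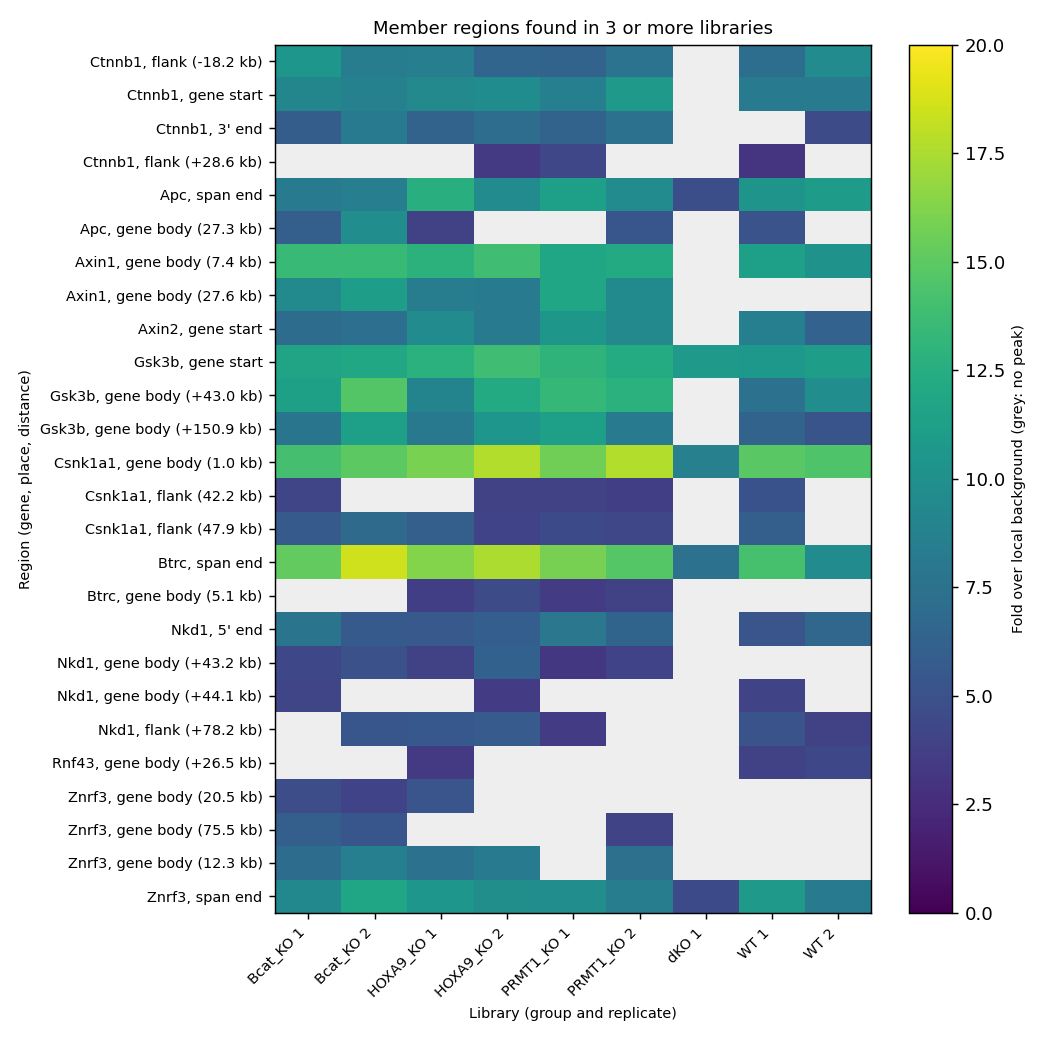
Fold over local background (colour) at the 26 member regions found in 3 or more libraries (rows) in each of the 9 libraries (columns), with grey for no peak. Distances in brackets run from the listed gene start, signed, or from the nearer end of the gene where no start is listed. Csnk1a1 and Btrc are the brightest rows, the dKO column has 5 filled cells, and the Axin1 region at 27.6 kb is filled in the 6 mutant libraries and empty in both WT libraries.

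Ctnnb1 itself (chr9:120933400-120960507) kept an accessible start in every paired library. The start region, chr9:120933203-120934079, had a fold of 9.18 and 8.77 over the local background in Bcat_KO, 9.43 and 9.70 for HOXA9_KO, 8.60 and 10.7 for PRMT1_KO, and 8.31 and 8.34 in WT, and no peak in the dKO. The Bcat_KO values lay within the range of the other mutants and above both WT values. These folds rested on 25 to 40 reads at the summit and are not normalized between libraries, so groups were compared by rank. Each of the 19172 regions found in all 8 lists was given its percentile among them by −log10 p, with 100 the strongest, and limma was fitted to all of these regions. By this rank, the Ctnnb1 start stood at 47.8 ± 8.56 for Bcat_KO and 61.1 ± 1.95 in WT (SD, n = 2 each), a difference of −13.2 ± 10.7 points (limma SE, adjusted p = 0.536). Which part of Ctnnb1 was deleted is not stated, so this peak does not check the deletion.

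A flank region 18130 bp upstream of the Ctnnb1 span (chr9:120914798-120915507) was the member with the smallest adjusted p in PRMT1_KO. Its rank percentile was 9.47 and 26.3 for PRMT1_KO, against 36.9 and 62.4 in WT, with 51.6 and 28.8 for Bcat_KO and 34.9 and 13.7 for HOXA9_KO. Both PRMT1_KO values lay below both WT values, but HOXA9_KO replicate 2 lay between them. The difference in PRMT1_KO was −31.8 ± 12.6 points and did not pass the test (limma, adjusted p = 0.25). At the other end of the gene, a region 100 bp beyond the span (chr9:120960446-120960885) had a fold of 5.90 and 8.15 for Bcat_KO, 6.39 and 7.14 for HOXA9_KO, 6.36 and 7.57 for PRMT1_KO, and 4.60 in WT replicate 2, with no peak in WT replicate 1 or the dKO. All 6 mutant values were above the WT value that had a peak, which rested on 9 reads.

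Among the scaffolds, Axin1 (chr17:26131217-26195811) gave the clearest presence and absence among the members. A region in its body, chr17:26167982-26168468, 27600 bp from the nearer end of the gene, had a fold of 9.50 and 11.2 for Bcat_KO, 8.39 and 8.19 for HOXA9_KO, and 11.7 and 9.47 for PRMT1_KO, whereas neither WT library nor the dKO had a peak there. In reads, the summits held 21 and 24 for Bcat_KO, 18 and 17 for HOXA9_KO, and 30 and 22 for PRMT1_KO. The weakest 200 peaks of each WT list rested on a median of 6 reads. Reads are not normalized between libraries, and whether depth accounts for the missing WT peaks was not tested. The mean fold over the 6 mutant libraries, which are of 3 genotypes and not replicates of 1 condition, was 9.75. This was the 26th highest of the 1305 regions with a peak in all 6 mutant libraries and in no WT library, whose median was 5.90. The same libraries define these regions, so the place only describes them.

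To set regions like this beside the whole genome, each paired list was shortened to its 28325 strongest peaks, the length of the shortest. A region was called opened when both libraries of a mutant had it among their strongest 14162 peaks and both WT libraries lacked it, and closed where WT and mutant swap places. An exact test of 2 libraries against 2 cannot reach 0.05 at a single region, so no p is given. The Axin1 body region ranked 12131 and 10389 for Bcat_KO and 9992 and 12726 for PRMT1_KO, and was opened in both. In HOXA9_KO it ranked 15008 and 16641, just outside the limit, so the rule separates mutants that all had the peak, and the difference between the mutants was not tested. It was 1 of the 30 member regions in the shortened lists to be opened in Bcat_KO, where 0.269% of all 46847 regions were, and 1 of 30 for PRMT1_KO, where 0.188% were. In HOXA9_KO, 0 of 30 were opened, beside 0.446% of all regions. None of the 30 was closed in any mutant, beside 0.0832% for Bcat_KO, 0.16% for HOXA9_KO and 0.0704% for PRMT1_KO. The 3 comparisons share their WT libraries, so they are not independent. With only the strongest 7081 peaks of each list counted, or with −log10 q of at least 5, the Axin1 region was no longer opened in either mutant. It was opened in 7 of the 9 alternatives run for each of them. Among these, ranking by fold and joining summits within 200 bp could have removed the call and did not. The lists as deposited and the settings without 1 library only ease the rule here, so they could not have removed it.

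The other Axin1 region, chr17:26138312-26139196, lay 7393 bp inside the gene and was present in all 8 paired libraries. Its rank percentile was 82.1 and 76.1 for Bcat_KO, 78.8 and 76.2 for HOXA9_KO, 68.0 and 67.7 for PRMT1_KO, and 71.9 and 69.9 in WT. Both PRMT1_KO values were the lowest of the 8, by a margin of about 2 points, and the difference from WT was −3.06 ± 5.15 points (limma, adjusted p = 0.817).

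Apc (chr18:34220297-34322190), the tumour suppressor scaffold, had its common region near an end of the gene, at chr18:34220576-34221739. Its fold was 8.27 and 8.53 for Bcat_KO, 12.6 and 9.64 for HOXA9_KO, 11.3 and 9.63 for PRMT1_KO, 4.79 in the dKO, and 10.4 and 11.0 in WT. By rank percentile, Bcat_KO stood at 45.6 and 40.5, against 72.0 and 75.5 in WT, and the lowest of the other 4 libraries was HOXA9_KO replicate 2 at 51.8. Both Bcat_KO libraries were thus below all 6 others. The difference from WT, −30.7 ± 10.2 points, was the lowest among the 12 regions in Bcat_KO and did not pass the test (limma, unadjusted p = 0.0111, adjusted p = 0.143). A flank region of Apc, chr18:34202220-34202764, appeared only in the 2 HOXA9_KO lists, at a fold of 9.71 and 4.55, and was too weak in replicate 2 for the opened call.

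Axin2 (chr11:108917828-108950783), the scaffold that Wnt signalling itself induces, had 1 common region, over its start at chr11:108920114-108921460. Its fold was 7.06 and 7.28 for Bcat_KO, 9.65 and 8.17 for HOXA9_KO, 10.6 and 9.41 for PRMT1_KO, and 8.61 and 6.29 in WT. By rank percentile the values were 26.8 and 25.4 for Bcat_KO, 52.8 and 35.2 for HOXA9_KO, 58.2 and 50.9 for PRMT1_KO, and 57.6 and 30.4 in WT. Bcat_KO held the lowest ranks of the 8, but WT replicate 2 lay close above them. The difference of Bcat_KO from WT was −17.9 ± 11.8 points (limma, adjusted p = 0.44, unadjusted 95% interval −43.7 to 7.88). Its size was smaller than the gap between the WT libraries, although both Bcat_KO values lay below both WT values. No peak was found at Axin2 in the dKO.

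**Figure D2:**
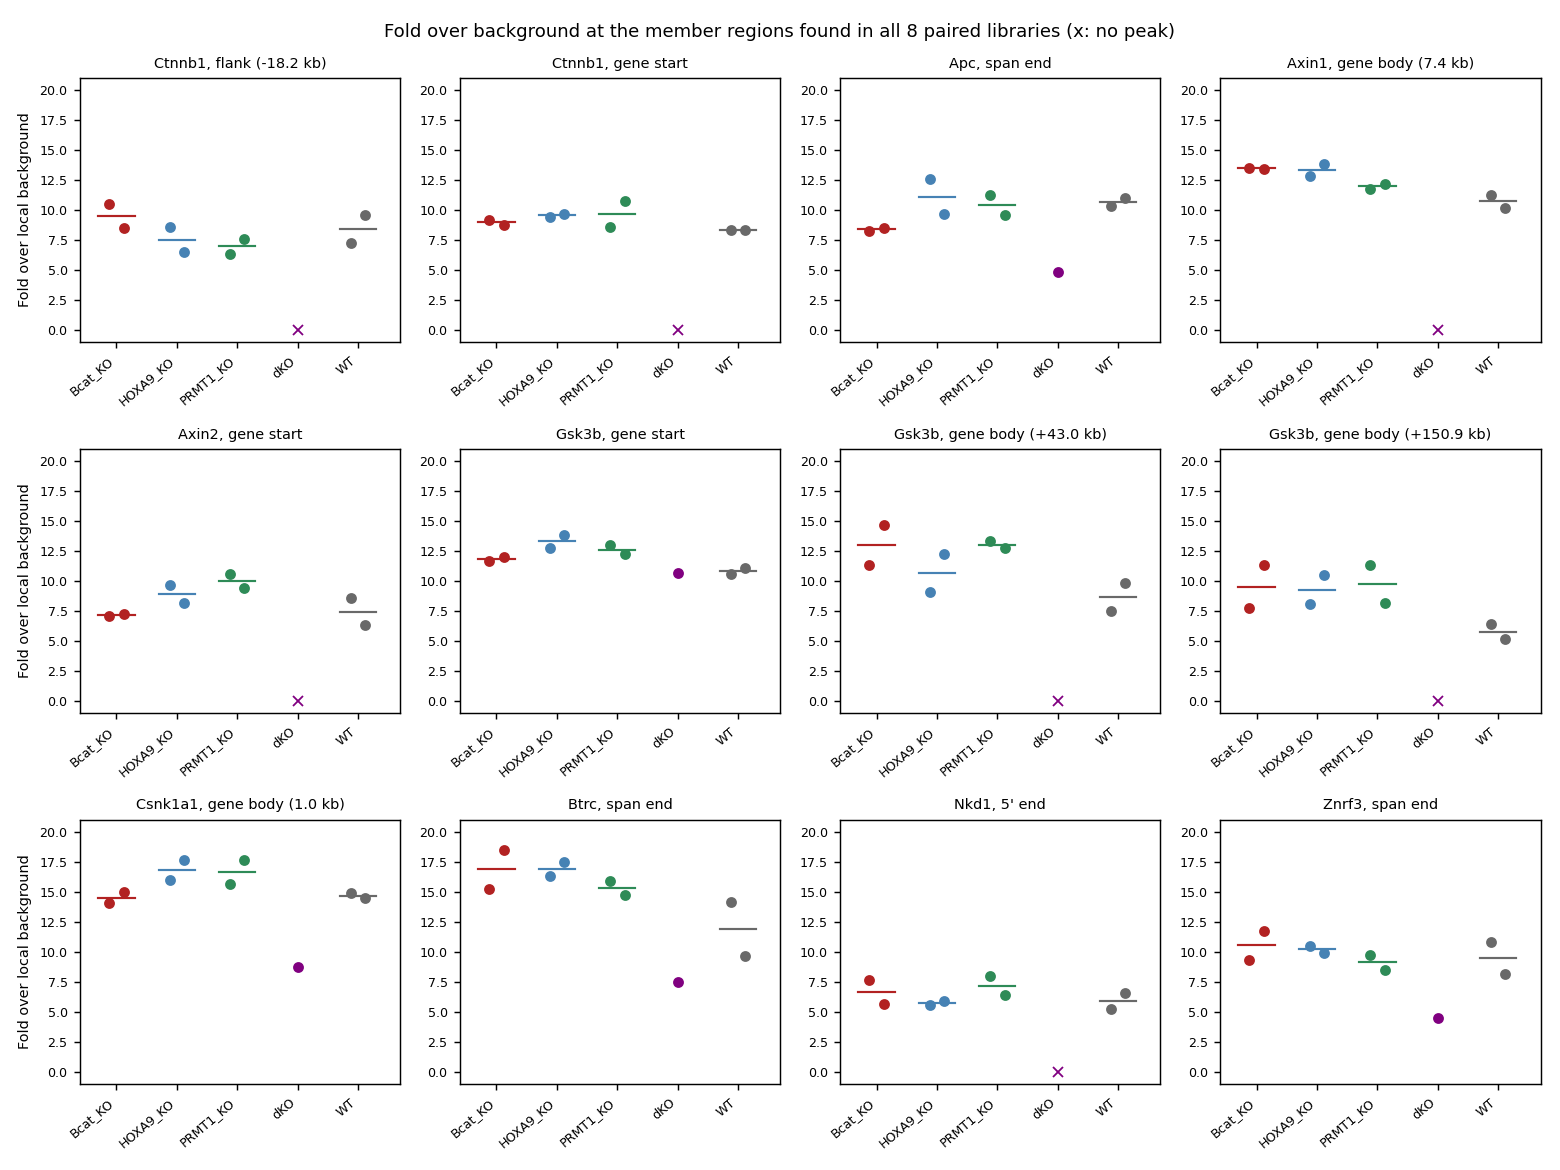
Fold over local background in each library (points; lines show group means where both libraries had a peak; x marks no peak in the list) at the 12 member regions found in all 8 paired libraries, for Bcat_KO, HOXA9_KO, PRMT1_KO, dKO and WT. Bcat_KO at the Apc region (8.27 and 8.53) lies under WT (10.4 and 11.0), while at the Btrc region the 6 mutant libraries (14.7 to 18.6) lie above both WT libraries (14.2 and 9.65).

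Of the kinases, Gsk3b (chr16:38089001-38246084) had the strongest start of all members. The region chr16:38088298-38089874 held 131 and 133 summit reads in Bcat_KO, 164 and 162 for HOXA9_KO, 207 and 147 for PRMT1_KO, 39 in the dKO, and 174 and 139 in WT. It stood in the top percentiles of every library, at 97.2 ± 0.454 for Bcat_KO, 98.6 ± 0.253 for HOXA9_KO, 98.3 ± 1.23 for PRMT1_KO and 98.7 ± 0.0184 in WT (SD, n = 2 each). The differences from WT were −1.53, −0.103 and −0.433 points in Bcat_KO, HOXA9_KO and PRMT1_KO, and the interval in Bcat_KO ran from −3.83 to 0.764 (limma, unadjusted 95%). In the dKO it was the strongest member peak, at place 132 of the list.

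Gsk3b also had a pair of common regions inside the gene. The one 150940 bp after the start, chr16:38239609-38240356, stood at the 25.0 and 53.4 percentile in Bcat_KO, 29.4 and 42.6 for HOXA9_KO, 46.6 and 29.3 for PRMT1_KO, and 21.2 and 11.6 in WT. Both WT libraries were below all 6 mutant libraries, on 14 and 10 summit reads in WT against 17 to 29 in the mutants. The differences of 22.8 ± 11.6, 19.6 ± 11.6 and 21.5 ± 11.6 points in Bcat_KO, HOXA9_KO and PRMT1_KO did not pass the test (limma, adjusted p = 0.315, 0.376 and 0.392). The one 42990 bp after the start, chr16:38131587-38132654, had a fold of 11.4 and 14.6 for Bcat_KO, 9.06 and 12.2 for HOXA9_KO, 13.3 and 12.8 for PRMT1_KO, and 7.53 and 9.84 in WT. By rank percentile it stood at 59.5 and 73.6 for Bcat_KO, 46.9 and 63.4 for HOXA9_KO, 69.2 and 71.4 for PRMT1_KO, and 43.4 and 62.0 in WT. Both PRMT1_KO values were above both WT values, but the difference of 17.6 ± 10.1 points did not pass the test (limma, adjusted p = 0.424), and Bcat_KO and HOXA9_KO overlapped with WT.

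Csnk1a1 (chr18:61554236-61590320), the priming kinase, had the smallest adjusted p of any member. Its common region, chr18:61554741-61555752, lies 1009 bp inside the gene. The rank percentile there was 86.5 and 87.6 for Bcat_KO, 92.0 and 93.4 for HOXA9_KO, 91.3 and 93.2 for PRMT1_KO, and 94.5 and 92.3 in WT. Bcat_KO was below all 6 other libraries, which overlapped with each other. The difference from WT was −6.31 ± 1.77 points and missed the threshold (limma, unadjusted p = 0.00403, adjusted p = 0.0953, with 0.089 to 0.297 over 10 alternatives). Ranked by fold in place of p, it was −9.0 points (limma, unadjusted p = 0.00796, adjusted p = 0.207). The dKO had this peak at 8.74 times background, on 14 reads. A weaker flank region of Csnk1a1, chr18:61637899-61638677, had a fold of 5.66 and 6.88 for Bcat_KO, 6.04 and 4.0 for HOXA9_KO, 4.46 and 4.27 for PRMT1_KO, and 6.06 in WT replicate 1, with no peak in WT replicate 2 or the dKO. The WT value lay within the mutant range.

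Btrc (chr19:45363688-45533343), the adaptor that recognises phosphorylated β-catenin, ranked higher in the mutants by its mean. Its region at an end of the gene, chr19:45363402-45364208, had a fold of 15.2 and 18.6 for Bcat_KO, 16.3 and 17.5 for HOXA9_KO, 15.9 and 14.7 for PRMT1_KO, 7.49 in the dKO, and 14.2 and 9.65 in WT. By rank percentile it was 83.9 and 89.0 for Bcat_KO, 89.2 and 86.3 for HOXA9_KO, 81.4 and 78.2 for PRMT1_KO, and 83.6 and 67.1 in WT. WT replicate 1 lay within the mutant range and WT replicate 2 far under it. In HOXA9_KO, where this was the member with the smallest adjusted p, the difference was 12.5 ± 4.77 points (limma, adjusted p = 0.171). Without WT replicate 2 the difference was 3.77 points (limma, adjusted p = 0.605), and without WT replicate 1 it was 19.9 points (limma, adjusted p = 0.0632). In Bcat_KO it was 11.1 ± 4.77 points (limma, adjusted p = 0.238). A further Btrc peak, chr19:45497377-45497695, occurred in the dKO alone, at a fold of 3.96.

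The membrane feedback genes were less uniform. Znrf3 (chr11:5276329-5444847), which encodes a ubiquitin ligase that removes Frizzled receptors, had a common region at an end of the gene, chr11:5444351-5445459. Its fold was 9.35 and 11.8 for Bcat_KO, 10.5 and 9.91 for HOXA9_KO, 9.77 and 8.48 for PRMT1_KO, 4.49 in the dKO, and 10.8 and 8.18 in WT. By fold, each mutant overlapped with WT. By rank percentile, Bcat_KO stood at 50.8 and 62.5 and HOXA9_KO at 57.0 and 47.0. PRMT1_KO stood at 50.1 and 39.1 and WT at 74.6 and 56.4. Both PRMT1_KO values lay below both WT values, while Bcat_KO and HOXA9_KO overlapped with WT. The largest rank difference was −20.9 ± 10.7 points in PRMT1_KO and did not pass the test (limma, adjusted p = 0.366). Inside the gene, a region 12315 bp from that end, chr11:5432292-5432784, had a fold of 7.09 and 8.62 for Bcat_KO, 7.50 and 8.19 for HOXA9_KO, and 7.41 in PRMT1_KO replicate 2. It was missing from PRMT1_KO replicate 1, from the dKO and from both WT libraries. Its ranks of 15325 to 18447 kept it outside the opened call in the shortened lists. In the lists as deposited, it was opened in Bcat_KO and HOXA9_KO.

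Rnf43 (chr11:87663087-87735539), the close relative of Znrf3 with the same role, was the member with the fewest and weakest peaks. Of its 4 regions, 3 occurred in 1 library each, among them the start, which had a peak in HOXA9_KO replicate 2 alone at a fold of 4.10 on 8 reads. The remaining one, chr11:87725896-87726551, had a fold of 3.43 in HOXA9_KO replicate 1, and 3.83 and 4.36 in WT, on 7 to 9 reads. All of these lie near the floor of their lists, where the weakest 200 peaks had a median fold of 2.96 to 3.13 for HOXA9_KO and WT. Differences between groups at Rnf43 were not detectable at this depth.

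Nkd1 (chr8:88521342-88594887), whose product acts on Dishevelled, had a common region at the 5′ end of its span, chr8:88520990-88522194. The fold was 7.66 and 5.66 for Bcat_KO, 5.57 and 5.94 for HOXA9_KO, 7.96 and 6.43 for PRMT1_KO, and 5.26 and 6.57 in WT. By fold, each mutant overlapped with WT. By rank percentile, Bcat_KO stood at 30.5 and 9.22 and HOXA9_KO at 9.98 and 13.2. PRMT1_KO stood at 30.2 and 17.2 and WT at 14.4 and 36.7. Both HOXA9_KO values lay below both WT values, while Bcat_KO and PRMT1_KO overlapped with WT. The HOXA9_KO difference of −14 ± 9.96 points did not pass the test (limma, adjusted p = 0.473). A weaker region 43223 bp after the listed start, chr8:88570593-88570982, was the other member region with a peak in all 6 mutant libraries and in no WT library. Its fold was 4.33 and 4.99 for Bcat_KO, 3.96 and 6.23 for HOXA9_KO, and 3.25 and 4.03 for PRMT1_KO, on 11 to 17 reads. In WT replicate 1, a weak peak of its own lay next to it, at a fold of 2.72 on 8 reads. WT replicate 1 had a further peak close by, chr8:88571545-88571858, at a fold of 4.11 on 12 reads. That peak was also present in Bcat_KO replicate 1 (4.22) and HOXA9_KO replicate 2 (3.54). With the Axin1 body region, 2 of 59 member regions in the paired lists had a peak in all 6 mutant libraries and no WT library. This pattern was found at 1.73% of 75302 regions. With lists of equal length, 1 of 30 had it, the Axin1 region, beside 1.08%. The reverse pattern, both WT libraries and no mutant, was found at 0 of 59 and 0 of 30 member regions, beside 0.235% and 1.23% of all regions. WT lists were the shortest, and the share of this in the counts from the deposited lists was not tested. In the lists of equal length the Axin1 region kept the pattern.

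**Figure D3:**
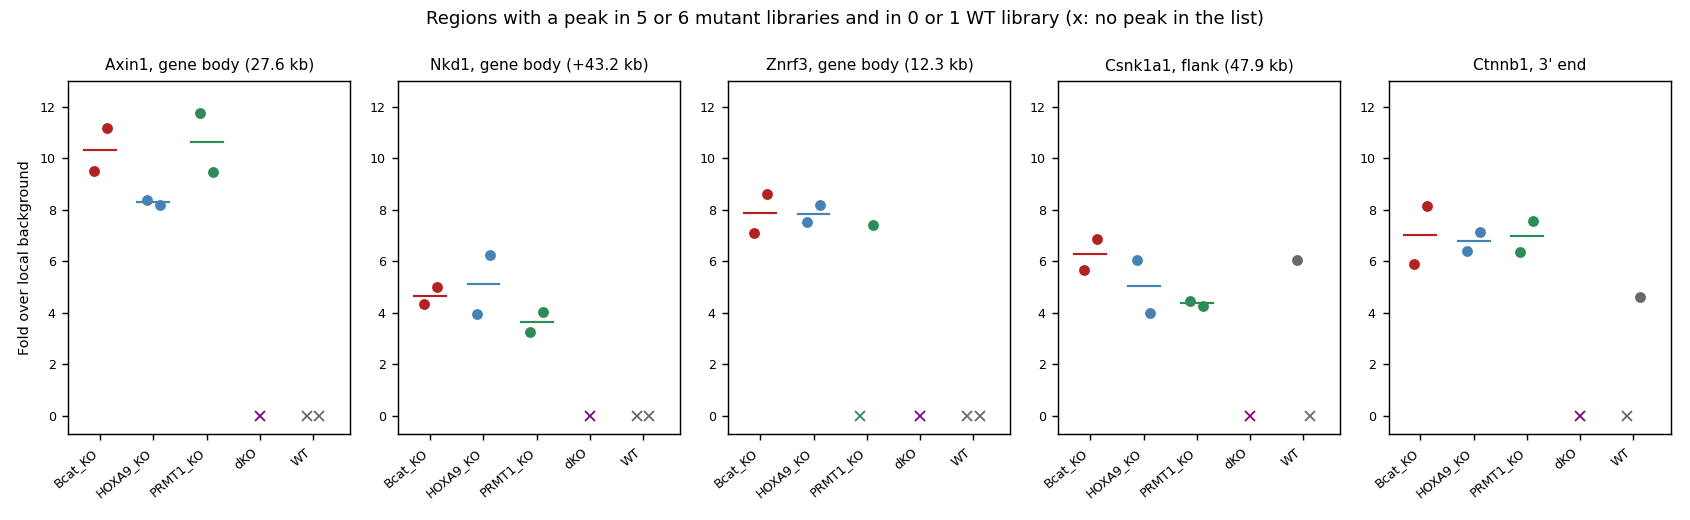
Fold over local background in each library (points; lines are group means where both libraries had a peak; x marks no peak in the list and carries no value) at the 5 member regions with a peak in 5 or 6 mutant libraries and in 0 or 1 WT library, for Bcat_KO, HOXA9_KO, PRMT1_KO, dKO and WT. The Axin1 values of the 6 mutant libraries run from 8.19 to 11.7 with no peak in WT, while at the Ctnnb1 3′ end WT replicate 2 has a peak at 4.60.

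Across the 12 common regions, 0 passed an adjusted p of 0.05 in any comparison (limma, Benjamini-Hochberg over 19172 regions). Of all regions, 0.725% ranked higher and 0.198% lower at this threshold in Bcat_KO, 1.48% and 0.835% in HOXA9_KO, and 0.214% and 0.0156% in PRMT1_KO. At an unadjusted p under 0.05 (limma), 1 of the 12 was higher in Bcat_KO (Btrc), beside 9.83% of all regions, and 2 were lower (Apc and Csnk1a1), beside 8.7%. At the same level 1 was higher in HOXA9_KO (Btrc), beside 10.6%, and 0 were lower, beside 9.67%. For PRMT1_KO 0 were higher, beside 8.92%, and 1 was lower (the Ctnnb1 flank), beside 7.09%. With 12 regions, these counts are near the shares over all regions. The median difference of the 12 regions was −5.98 points in Bcat_KO, −0.393 for HOXA9_KO and −1.49 for PRMT1_KO, beside −0.416, −0.301 and −0.367 over all 19172 regions in the same comparisons. In each comparison 8 of the 12 members had a negative and 4 a positive difference, and the comparisons share their WT libraries. The share of all regions in each direction is not given, and the medians over all regions were negative too, so this count shows no lean of the members.

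A count added after the values were seen asked where both libraries of a group lay beyond all 6 others by rank. For Bcat_KO this was so below at 3 of the 12 member regions (Apc, the Axin2 start and Csnk1a1), beside 4.12% of all regions, and above at 0 of 12, beside 3.65%. Ranked by fold in place of p, the Gsk3b start joined these 3 (4 of 12, beside 3.91%). For HOXA9_KO the count was 0 of 12 below, beside 7.01%, and 0 above, beside 6.79%. For PRMT1_KO it was 1 below (the Axin1 region at 7393 bp), beside 4.93%, and 0 above, beside 5.18%. Ranked by fold, the Znrf3 end joined it (2 of 12, beside 4.36%). For WT it was 1 below (the Gsk3b region at 150940 bp), beside 8.92%, and 0 above, beside 9.42%. These counts carry no test, and none of the regions passed limma.

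**Figure D4:**
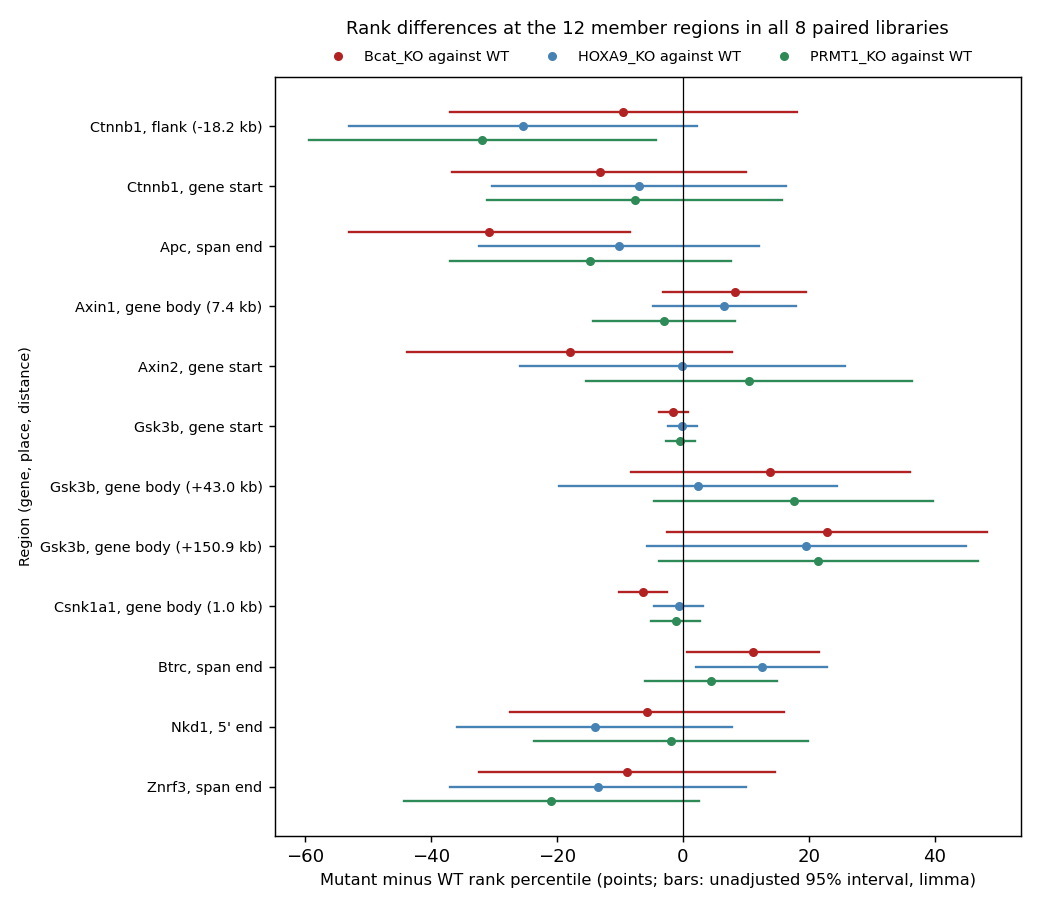
Mutant minus WT difference in rank percentile (horizontal axis, points; bars are unadjusted 95% intervals from limma) at the 12 member regions in all 8 paired libraries, for Bcat_KO, HOXA9_KO and PRMT1_KO. The Gsk3b start and Csnk1a1 have the narrowest intervals, and the Apc (−30.7) and Csnk1a1 (−6.31) intervals of Bcat_KO lie left of 0, although neither passed after adjustment.

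The dKO list of 10639 peaks covered 5 of the 10 genes. It held 5 of the 12 common regions (41.7%), those of Apc, the Gsk3b start, Csnk1a1, Btrc and Znrf3, beside 43.2% of all 19172 common regions. Shortened to the same 10639 strongest peaks, the other lists held 8 and 8 member regions in Bcat_KO, 9 and 7 for HOXA9_KO, 10 and 8 for PRMT1_KO, and 8 and 9 in WT, against 6 in the dKO. Neither Ctnnb1 nor Axin1, Axin2, Nkd1 or Rnf43 had a peak in the dKO. At the depth of that library this does not show that the regions were closed, since its strongest member summit rested on 39 reads. Summit reads of its weakest peaks are not given, because the recovery from fold and p failed at its weak Apc and Btrc peaks.

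Other genes of the Wnt pathway were counted from a list of 98 ligands, receptors, inhibitors, nuclear factors and targets, of which 97 were in the annotation and 95 had at least 1 region. Of their 279 regions in the shortened lists, 1 was opened in Bcat_KO, beside 0.269% of all regions, 4 in HOXA9_KO, beside 0.446%, and 1 in PRMT1_KO, beside 0.188%, and 0 were closed in any mutant. Lef1, a DNA-binding partner of β-catenin, had the same region, chr3:131157381-131157911, opened in all 3. Its fold was 8.25 and 11.1 for Bcat_KO, 10.6 and 10.3 for HOXA9_KO, and 12.2 and 10.1 for PRMT1_KO, with no peak in WT or the dKO. Like the Axin1 body region, it was found in all 6 mutant libraries and in no WT library, a pattern at 10 of the list's 485 regions, beside 1.73% of all regions.

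In HOXA9_KO the other opened regions of the list belonged to receptors. Lgr5, the R-spondin receptor that counters Znrf3 and Rnf43, had a pair of them. At chr10:115465699-115466353 the fold was 5.88 and 5.81 for Bcat_KO, 8.98 and 9.12 for HOXA9_KO, 5.38 in PRMT1_KO replicate 1 and 4.48 in the dKO, with no peak in PRMT1_KO replicate 2 or WT. At chr10:115518568-115519373 it was 4.32 in Bcat_KO replicate 1 and 8.44 and 8.93 for HOXA9_KO, with no peak in the other libraries. The Lrp5 region, of a Wnt co-receptor, lay at chr19:3669144-3669502 and had a peak in all 6 mutant libraries, at 5.36 and 7.39 for Bcat_KO, 8.25 and 8.86 for HOXA9_KO, and 6.87 and 8.16 for PRMT1_KO, with none in WT or the dKO. Differences between the mutants at these regions were not tested. By rank, 0 of the list's 106 common regions passed in Bcat_KO (beside 0.923% of all regions) or PRMT1_KO (0.23%) and 2 in HOXA9_KO (2.31%), a count near the background. The Fzd8 region stood at 56.8 and 68.1 for Bcat_KO, 65.0 and 70.2 for HOXA9_KO, 22.8 and 27.0 for PRMT1_KO, and 25.1 and 23.3 in WT, so both Bcat_KO and HOXA9_KO lay above WT. The difference of HOXA9_KO from WT just passed (43.4 ± 10.1 points, limma, adjusted p = 0.0489). A Ryk region stood at 43.6 and 28.4 for Bcat_KO, 60.2 and 50.6 for HOXA9_KO, 15.9 and 21.4 for PRMT1_KO, and 16.6 and 8.68 in WT, and HOXA9_KO passed against WT (42.8 ± 9.48 points, limma, adjusted p = 0.0437). Fzd8 lost the call in 7 of 8 alternatives and Ryk in 6 of 8, with adjusted p up to 0.207 and 0.187 (limma), including when each HOXA9_KO or WT library was left out in turn.

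The rank profile of the Ctnnb1 start over the 8 libraries was most like those of the starts of Map3k5, Galc and Map7d1. Their root mean square distances were 5.21, 5.29 and 5.40 points, beside a median of 27.1 over 10428 start regions. For the Axin2 start, the closest were Sh3bp2, Preb and Tmem120a at 4.99, 6.46 and 7.37 points, beside a median of 31.0. These distances describe 8 libraries and carry no test.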

How the data were processed

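ATAC-seq peak lists of 9 mouse LSK libraries were used. Per the submitters' processing notes, reads were aligned with Bowtie2 2.4.2 to GRCm38, handled with SAMtools 1.14 and Picard 2.27.4, and peaks were called with MACS2, 1 list per library. The deposited score of a peak equals the whole part of 10 times its −log10 q-value. The deposited fold is a ratio of the summit pileup to the local background of the same library. The deposited −log10 p-values and −log10 q-values are MACS2's own, and no scaling between libraries enters any of them. The other deposited value, the summit offset in bases, places the summit.

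Groups and replicate numbers came from the sample titles. Fold was used to describe peaks, and comparisons used ranks within a list. Rank percentiles over the regions in all 8 paired lists were fitted with limma 3.58.1 (R 4.3.3, trend, 1 shared spread, mutant minus WT, Benjamini-Hochberg over all regions, threshold 0.05). The dKO stayed out of that fit. The fit was tested on simulated ranks with known shifts. Summit reads were recovered from fold and p, and came out whole within 0.01 at 204 of 206 member peak summits. The others were the dKO peaks at the Apc end and at chr19:45497377-45497695. They came out with a background of 0, so no reads are given for them. Lists were read with Python 3.11.15 and pandas 2.3.3. Gene spans, starts and promoter letters came from RefSeq GRCm38.p6. No genome sequence was used, so peaks were not searched for motifs, as had been planned, and promoter windows took their place.

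All 10 members are named. Full values are given for the common region of each, for regions opened or closed or past the threshold, and, where none passed, for the smallest adjusted p of each comparison. Pathway genes outside the 10 are named where a region was called. The members, the lists and the tests were chosen with earlier results of these data known. Alternatives were ranking by fold, the logit of the percentile, −log10 q of at least 5, summits joined within 200 bp, a replicate block, each library left out, only the 4 libraries compared, lists as deposited and a limit at the strongest 7081 peaks.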

Additional observations from a re-analysis of the deposited data

How the results depend on the processing

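The counts behind the genome-wide background move with the processing. Regions with a different rank (limma, adjusted p under 0.05) numbered 177 in Bcat_KO, 443 in HOXA9_KO and 44 in PRMT1_KO against WT. Ranked by fold they were 5, 29 and 0. With the logit of the percentile they were 392, 851 and 218. With −log10 q of at least 5 they were 111 in Bcat_KO and 263 in HOXA9_KO. With only the 4 libraries compared they were 0, 0 and 0. With 1 library left out they ranged from 0 to 132 in Bcat_KO, from 19 to 120 in HOXA9_KO and from 0 to 65 in PRMT1_KO, where the group left with a single library is assumed to vary like the others. Bcat_KO was at 0 without either of its own libraries and at 107 without WT replicate 1. HOXA9_KO was at 19 and 26 without its own replicate 1 or 2, and at 113 and 120 without WT replicate 1 or 2. PRMT1_KO was at 0 and 1 without its own replicate 1 or 2.

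Regions opened numbered 126 in Bcat_KO, 209 in HOXA9_KO and 88 in PRMT1_KO, and regions closed 39, 75 and 33. In the lists as deposited, 701, 695 and 505 were opened, and 21 and 43 closed in Bcat_KO and HOXA9_KO. With the limit at the strongest 7081 peaks, 11, 10 and 12 were opened and 0, 1 and 0 closed. With −log10 q of at least 5, 59, 100 and 42 were opened and 20, 43 and 10 closed. With summits joined within 200 bp, 201 and 148 were opened in Bcat_KO and PRMT1_KO, and 97, 133 and 87 closed. Without 1 library, which asks for agreement of fewer libraries, 260 to 378 were opened in Bcat_KO, 372 to 484 in HOXA9_KO and 207 to 349 in PRMT1_KO, and 100 to 232, 146 to 314 and 75 to 220 were closed. The Axin1 body region was opened without each of the libraries in Bcat_KO and PRMT1_KO, but leaving a library out could not have removed this call. Without HOXA9_KO replicate 2, the Apc flank region was opened in HOXA9_KO.

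The number of member regions was 60, and 26 with −log10 q of at least 5. No common member region passed in any of the 10 alternatives run for each comparison, where the smallest adjusted p (limma) was 0.0754 to 0.234 in Bcat_KO, 0.0632 to 0.406 in HOXA9_KO and 0.214 to 0.472 in PRMT1_KO. With −log10 q of at least 5, 11 of the 12 could be tested. The replicate numbers of the labels are shared between groups, but same-numbered libraries did not deviate together (r of −0.00412 to 0.0369 between the replicate differences of group pairs). With a replicate block, 158, 417 and 33 regions differed in Bcat_KO, HOXA9_KO and PRMT1_KO, and Fzd8 had an adjusted p of 0.0549 (limma). Precision is limited by 2 libraries a group and by summits of 6 to 207 reads at the member peaks where reads came out whole. A region missing from a list is one not detectable at that depth.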
